A study of Mus musculus with 2 samples.

Results

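Zinc, iron and copper are taken up, moved between compartments, stored and exported by dedicated transporters, reductases and binding proteins, and 42 genes of this kind were followed in a pair of mouse striatal cell lines. The genes were chosen by a rule on their names, with earlier results of these data known: the SLC30 (ZnT) and SLC39 (ZIP) zinc transporters, the metallothioneins, and the main proteins of iron and copper uptake, storage and export. They make up 42 of the 23176 genes in the table. Tfr2, a second transferrin receptor that the same name rule covers, matched no gene in the table by symbol and is not analysed here.

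The STHdhQ111 line carries the HdhQ111/Q111 genotype, in which both copies of the huntingtin gene encode an expanded polyglutamine tract, and the STHdhQ7 line carries HdhQ7/Q7. Both were derived from the striatum of mouse embryos at day 14 on a 129SvEv/CD1 background and were used at fewer than 15 passages. Both were grown at 33 °C and held at 39 °C for 2 days before RNA was taken, a step meant to halt division. With 1 line per genotype, an effect of the huntingtin alleles and any other difference between the lines cannot be told apart.

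Polyadenylated RNA was sequenced, with levels in FPKM, a unit that divides fragments by transcript length and by the mapped total. The sample titles name 3 replicates per line, but the values are 1 combined figure per line. All FPKM below are those combined values of the authors, with no replicate spread of their own, and the depth behind them is unknown. A gene is referred to as called where the q-value in the authors' deposited table was 0.05 or less. The standard errors are those implied by the fold change and the test statistic of that table, and 95% intervals were computed from them. In bulk RNA, fewer cells with a transcript and less RNA per cell cannot be told apart.

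The lines carried little RNA of mature striatal neurons. All 4 listed medium spiny neuron markers were under 1 FPKM in both lines, as were all 6 markers of microglia and leukocytes and all 3 of endothelium. Markers of fibroblasts summed to 2059 FPKM in STHdhQ111 and 487 FPKM in STHdhQ7, with Col1a1 at 1487 FPKM in STHdhQ111 and 451.9 FPKM in STHdhQ7. Of the 4 neural progenitor markers, 3 were under 1 FPKM in STHdhQ111 and none was in STHdhQ7, with Sox2 at 0.561 FPKM in STHdhQ111 and 72.0 FPKM in STHdhQ7. Erythroid markers, which bear on iron genes, were under 1 FPKM in both lines for 3 of 4 genes, the exception being Hba-a1 at 4.22 FPKM in STHdhQ111 and 11.7 FPKM in STHdhQ7. The part of these markers in the results below was not tested. Htt itself was listed at 2.83 FPKM in STHdhQ111 and 3.91 FPKM in STHdhQ7 and was not called.

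Cells take up iron bound to transferrin through the transferrin receptor, reduce it in the endosome with a STEAP reductase and pass it to the cytosol through the transporter Slc11a2. Iron that is not used is stored in ferritin, and surplus iron leaves through ferroportin. Zinc enters the cytosol through ZIP transporters and is moved out of it, into vesicles or out of the cell, by ZnT transporters, while metallothioneins bind zinc and copper in the cytosol. In the brain, zinc in synaptic vesicles, iron in the striatum and copper in many enzymes have all drawn interest in neurodegeneration.

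The endosomal iron reductase Steap3 and the zinc transporter Slc30a3 were called higher in STHdhQ111. The transferrin receptor Tfrc and the iron exporter ferroportin (Slc40a1) were called lower. Slc30a3 was under 1 FPKM in both lines, and Slc40a1 was no longer called at a q of 0.01. Of the 42 genes, 29 had a test. Of those 29, 4 were called (13.8%), beside 13.5% of all 12740 tested genes. The 2 genes called higher were 6.9% of the tested ones, beside 6.35% of all tested genes, and the 2 called lower were 6.9%, beside 7.17%. The metal handling genes were therefore called about as often as genes in general.

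On the log2 scale of FPKM + 0.5, the median ratio of STHdhQ111 to STHdhQ7 was -0.08 over the 29 tested genes and -0.05 over all tested genes. A change of at least 2-fold was found in 4 of the 29, the same 4 that were called (13.8%), and in 22.3% of the 12647 tested genes with a fold change. These shares were not matched for level: the median mean level was 14.3 FPKM over the tested members and 9.85 FPKM over all tested genes. The 25 tested genes that were not called had log2 fold changes from -0.95 to 0.65 in the authors' deposited table. The implied standard error of the log2 fold change had a median of 0.41 over the tested members, and the smallest fold called anywhere in the authors' deposited table was 2.03, so smaller changes were not detectable in this comparison.

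**Figure D1:**
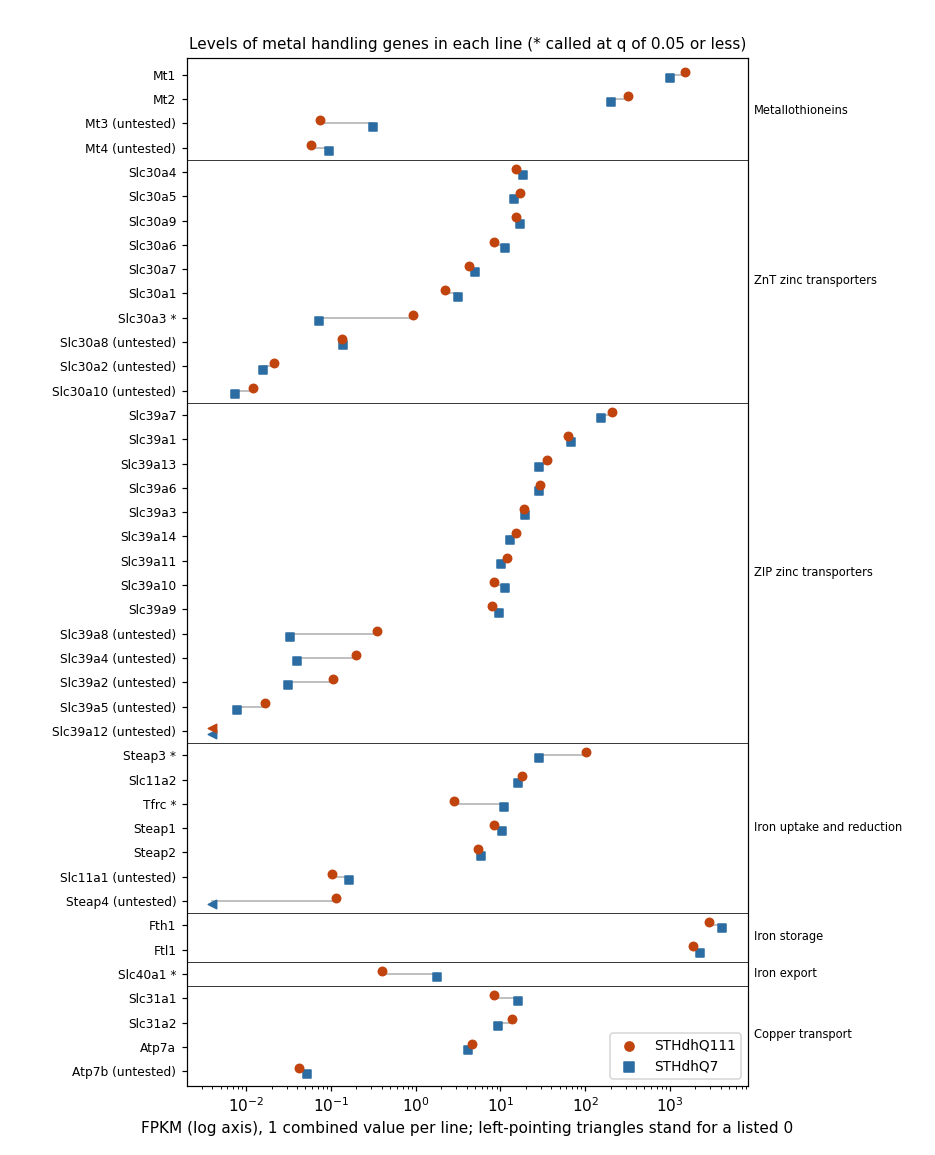
FPKM of all 42 metal handling genes on a log axis, grouped by role, with STHdhQ111 as circles and STHdhQ7 as squares. The called genes Steap3, Slc30a3, Tfrc and Slc40a1 are marked with asterisks; the points of several untested genes near 0, such as Slc39a8 (0.352 FPKM in STHdhQ111 and 0.0326 FPKM in STHdhQ7), are also far apart on this axis. The levels run from a listed 0 to the 4169 FPKM of Fth1 in STHdhQ7.

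Iron uptake genes split. Tfrc, the receptor that brings iron-loaded transferrin into the cell (mm9 chromosome 16, 32608982 to 32632880), fell to 2.79 FPKM in STHdhQ111, against 11.2 FPKM in STHdhQ7, a 3.99-fold difference. For Tfrc the authors' deposited table gave a log2 fold change of -2.00 (implied SE 0.46, 95% interval -2.90 to -1.09) at a q of 0.000300. Steap3, which reduces iron inside the transferrin endosome (chromosome 1, 122122993 to 122167659), rose to 101 FPKM in STHdhQ111, against 28.8 FPKM in STHdhQ7, 3.51-fold. The corresponding log2 fold change of Steap3 in the authors' deposited table was 1.81 (implied SE 0.38, 95% interval 1.06 to 2.56), with q = 5.44e-05. The receptor and the reductase that act in the same endosome thus stood in opposite directions: per length, there were 36.1 times as many FPKM of Steap3 as of Tfrc in STHdhQ111 and 2.58 times as many in STHdhQ7.

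The other uptake genes were not called. Slc11a2, which carries ferrous iron out of the endosome, was listed at 18.2 FPKM in STHdhQ111 and 16.0 FPKM in STHdhQ7. Steap1 was listed at 8.35 FPKM in STHdhQ111 and 10.4 FPKM in STHdhQ7, and Steap2, a reductase of iron and copper, at 5.49 FPKM in STHdhQ111 and 5.85 FPKM in STHdhQ7. Steap1 and Steap2 lie next to each other on chromosome 5, 41753 bases apart. Steap3 made up 87.9% of the summed Steap FPKM in STHdhQ111 (114.9 FPKM) and 63.9% in STHdhQ7 (45.1 FPKM). Steap4 had no test, with 0.114 FPKM in STHdhQ111 and a listed 0 in STHdhQ7, and nor did Slc11a1, an iron transporter of macrophages, with 0.104 FPKM in STHdhQ111 and 0.163 FPKM in STHdhQ7.

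Slc40a1 encodes ferroportin, the route by which iron leaves cells (chromosome 1, 45964915 to 45982439). It fell to 0.395 FPKM in STHdhQ111, against 1.77 FPKM in STHdhQ7, a 4.48-fold difference on low levels. The log2 fold change was -2.16 (implied SE 0.75, 95% interval -3.63 to -0.69) at a q of 0.0324, from the authors' deposited table. This was the call with the highest q of the 4. It was lost at a q of 0.01, and with a pseudocount of 1 FPKM the log2 ratio was -0.99. The ratio of Tfrc to Slc40a1, per length, was 7.07 in STHdhQ111 and 6.30 in STHdhQ7, since the import receptor and the exporter were both about 4-fold lower.

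Ferritin messages were among the most abundant of all. Fth1, the ferritin heavy chain that oxidises iron for storage (chromosome 19, 10057193 to 10059582), was listed at 2919.9 FPKM in STHdhQ111 and 4169 FPKM in STHdhQ7, ranking 5 by level among all genes in STHdhQ111 and 3 in STHdhQ7. Ftl1, the ferritin light chain (chromosome 7, 52713314 to 52715256), was listed at 1872 FPKM in STHdhQ111 and 2291 FPKM in STHdhQ7, ranking 9 in STHdhQ111 and 8 in STHdhQ7. Neither was called. The 95% interval of the fold, computed from the authors' deposited table, ran from 0.34 to 1.45 for Fth1 and from 0.42 to 1.58 for Ftl1, so changes within those bounds were not resolved. Heavy to light chain FPKM stood at 1.56 in STHdhQ111 and 1.82 in STHdhQ7. The Ftl1 value is uncertain, because only 16.3% of the 36-base words of its transcript occurred in no other gene's transcripts, against 93.6% for Fth1; the other words were shared with 25 annotated genes, Ftl1-ps1 and Ftl1-ps2 among them.

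Several of these iron genes share a regulatory hairpin in their messages. The iron-responsive element is a short stem with a CAGTGN loop (CAGUGN in RNA) and an unpaired C, bound by the iron regulatory proteins Aco1 and Ireb2 when iron is scarce. At the 5′ end of a message its occupation blocks translation, and in the 3′ end of the transferrin receptor message it protects the RNA from decay. UTRs were searched for C, 5 bases, CAGTG and A, C or T, and 5 bases that pair with the first 5 (G with T allowed). A match was found in 4 of the 42 genes (9.52%) and in 118 of 21875 protein-coding genes (0.539%). The element was already known from iron genes that the name rule lists, so these shares are no test of enrichment. Hairpins with a bulge or mismatch in that stem, or with G as the last loop base, are missed by this pattern. A gene without a match may therefore still carry an element. The 7 hairpins are shown because they sit in both genes called lower and in both ferritin chains. They are written 5′ to 3′ on the strand of the transcript as DNA letters, in windows of 29 bases with the loop in capitals, from GENCODE M21 transcripts on GRCm38.
Tfrc 3′ UTR, chr16:32631219-32631247, plus strand: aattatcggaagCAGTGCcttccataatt
Tfrc 3′ UTR, chr16:32631598-32631626, plus strand: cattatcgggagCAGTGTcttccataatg
Tfrc 3′ UTR, chr16:32631663-32631691, plus strand: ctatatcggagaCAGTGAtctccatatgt
Tfrc 3′ UTR, chr16:32631710-32631738, plus strand: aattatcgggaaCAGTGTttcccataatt
Slc40a1 5′ UTR, chr1:45925465-45925493, minus strand: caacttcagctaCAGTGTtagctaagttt
Fth1 5′ UTR, chr19:9982732-9982760, plus strand: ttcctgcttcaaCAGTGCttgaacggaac
Ftl1 5′ UTR, chr7:45459779-45459807, minus strand: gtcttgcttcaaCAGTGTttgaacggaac

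The Fth1 and Ftl1 hairpins were identical at 26 of 29 positions. The 4 Tfrc hairpins lay within 520 bases of each other. The called genes with a hairpin carried it at opposite ends of the message, Tfrc after and Slc40a1 before the coding sequence, and both were lower in STHdhQ111. The ferritin genes carried it before the coding sequence, as Slc40a1 did, and were not called. A match to the pattern is a description of the letters and not evidence of binding, and FPKM measure RNA only, not translation. Aco1 and Ireb2, named for this role and outside the rule for naming genes, were not called. Aco1 was listed at 12.8 FPKM in STHdhQ111 and 14.8 FPKM in STHdhQ7, and Ireb2 at 12.4 FPKM in STHdhQ111 and 10.6 FPKM in STHdhQ7.

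**Figure D2:**
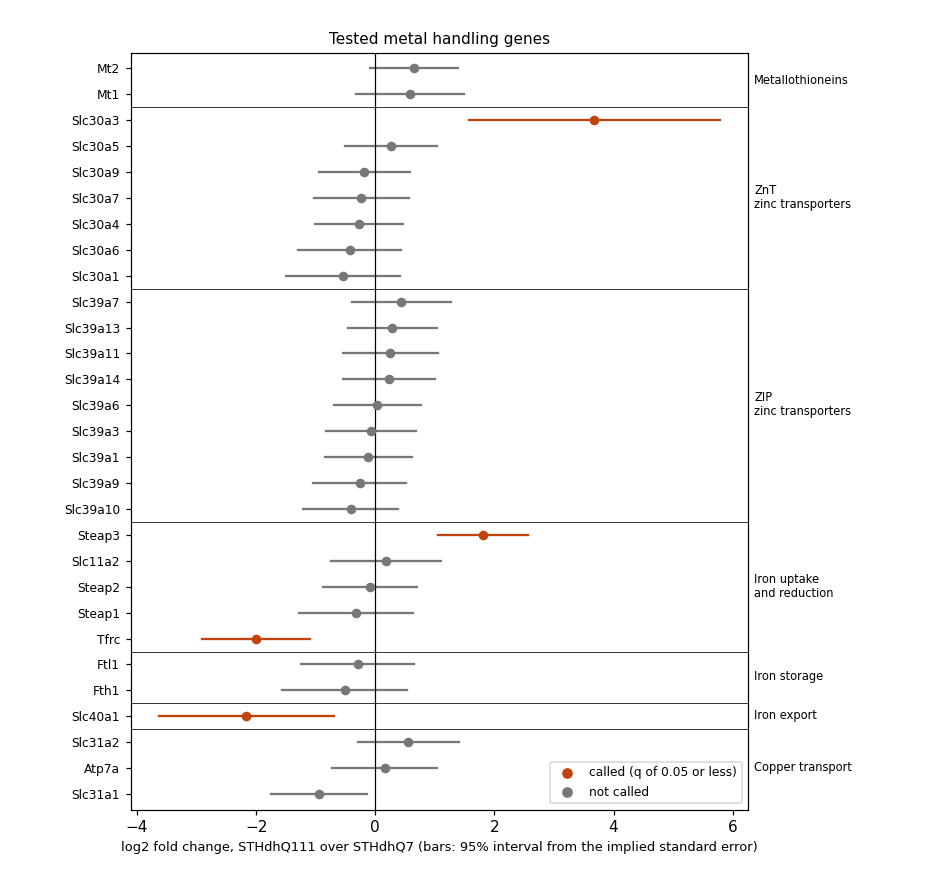
Log2 fold change, STHdhQ111 over STHdhQ7, of the 29 tested metal handling genes, grouped by role, with 95% intervals from the implied standard errors. The intervals of the called genes Slc30a3, Steap3, Tfrc and Slc40a1 lie off 0, as does that of Slc31a1, which was not called (q = 0.124 in the authors' deposited table).

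Among the zinc transporters of the ZnT family, which lower cytosolic zinc, only Slc30a3 of the 7 tested was called. Slc30a3 (ZnT3), known for loading zinc into synaptic vesicles of glutamatergic neurons (chromosome 5, 31388479 to 31395900), rose to 0.934 FPKM in STHdhQ111, against 0.0730 FPKM in STHdhQ7. In the authors' deposited table Slc30a3 had a log2 fold change of 3.68 (implied SE 1.08, 95% interval 1.57 to 5.79) and a q of 0.00700. The fold of 12.8 rests on a level near 0 in STHdhQ7, and the log2 ratio with a pseudocount of 1 FPKM was 0.85. Its STHdhQ7 level was below 0.352 FPKM, the highest level of any untested member, and even its STHdhQ111 level was the lowest of the 7 tested ZnT genes in that line. The 3 listed neuronal markers summed to 3.69 FPKM in STHdhQ111 and 2.46 FPKM in STHdhQ7, and their part in the Slc30a3 result was not tested. Nearly all of this was Tubb3, which was not called, at 3.62 FPKM in STHdhQ111 and 2.42 FPKM in STHdhQ7. The other two, Rbfox3 and Snap25, had no test and stood at 0.0318 and 0.0369 FPKM in STHdhQ111 and at 0.00738 and 0.0301 FPKM in STHdhQ7.

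The ZnT genes with higher levels did not differ by the test. Slc30a5 and Slc30a6, whose proteins pair to bring zinc into the secretory pathway, were listed at 17.2 and 8.44 FPKM in STHdhQ111 and at 14.3 and 11.3 FPKM in STHdhQ7. Slc30a4, a vesicular zinc transporter, was listed at 15.1 FPKM in STHdhQ111 and 18.2 FPKM in STHdhQ7. Slc30a9, linked to mitochondrial zinc, was listed at 15.1 FPKM in STHdhQ111 and 17.1 FPKM in STHdhQ7. Slc30a7, a Golgi transporter, and Slc30a1, the plasma membrane exporter, were lower in level, at 4.22 and 2.19 FPKM in STHdhQ111 and 4.96 and 3.19 FPKM in STHdhQ7. By level, Slc30a4, Slc30a5 and Slc30a9 led the family in both lines; no error is available for comparing levels between genes. Slc30a2, Slc30a8 and Slc30a10 had no test and lay at or under 0.138 FPKM in both lines. The family summed to 63.4 FPKM in STHdhQ111 and 69.3 FPKM in STHdhQ7.

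No ZIP transporter, the family that raises cytosolic zinc, was called among 9 tested. Slc39a7, which releases zinc from the endoplasmic reticulum and Golgi, was the most abundant, at 207.2 FPKM in STHdhQ111 and 153.3 FPKM in STHdhQ7, and made up 52.2% of the family's sum in STHdhQ111 and 44.9% in STHdhQ7. Its value is uncertain to an unknown degree. Of its 36-base words, 17.1% occurred in no other gene's transcripts, the rest being shared with 1 other annotated gene, Gm20427. Whether Gm20427 lies at the same locus was not checked. The words are from GENCODE M21, while the annotation and read length behind the FPKM are not given. Slc39a1, a plasma membrane importer, followed at 61.9 FPKM in STHdhQ111 and 67.2 FPKM in STHdhQ7, with 74.4% of its words its own. The whole family summed to 396.7 FPKM in STHdhQ111 and 341.7 FPKM in STHdhQ7, which gave a ratio of ZIP to ZnT sums of 6.26 in STHdhQ111 and 4.93 in STHdhQ7.

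The remaining tested ZIP genes lay between 7.99 and 35.0 FPKM in STHdhQ111 and between 9.61 and 28.7 FPKM in STHdhQ7. Slc39a13, a Golgi and vesicle transporter with a known role in connective tissue, was listed at 35.0 FPKM in STHdhQ111 and 28.7 FPKM in STHdhQ7. Slc39a6 and Slc39a10, whose proteins form a complex at the plasma membrane, were listed at 29.2 and 8.46 FPKM in STHdhQ111 and at 28.5 and 11.2 FPKM in STHdhQ7. Slc39a14, which carries iron and manganese as well as zinc, was listed at 15.4 FPKM in STHdhQ111 and 13.1 FPKM in STHdhQ7. Slc39a3, Slc39a11 and Slc39a9 were listed at 18.7, 12.1 and 7.99 FPKM in STHdhQ111 and at 19.7, 10.1 and 9.61 FPKM in STHdhQ7. Of the 5 untested ZIP genes, Slc39a8, a zinc and manganese importer, had the highest level, 0.352 FPKM in STHdhQ111 and 0.0326 FPKM in STHdhQ7. Slc39a4 was at 0.198 FPKM in STHdhQ111 and 0.0395 FPKM in STHdhQ7, and Slc39a2 was at 0.105 FPKM in STHdhQ111 and 0.0311 FPKM in STHdhQ7. Slc39a5 was under 0.02 FPKM in both lines and Slc39a12 was listed at 0 in both.

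**Figure D3:**
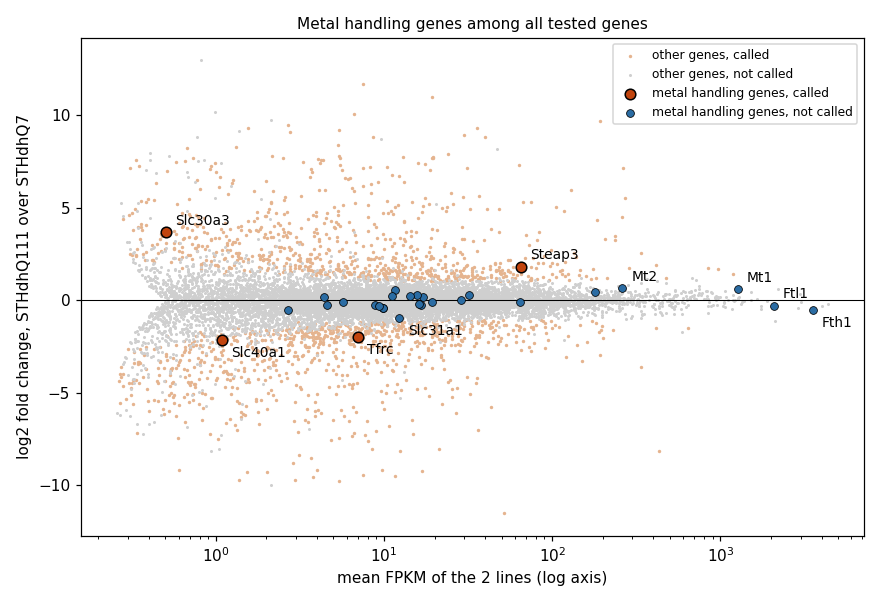
Log2 fold change, STHdhQ111 over STHdhQ7, against the mean FPKM of the lines (log axis) for the 12647 tested genes with a fold change, with metal handling genes as large points. The uncalled ones form a band between -0.95 and 0.65, and Fth1, Ftl1 and Mt1 lie at the high end of expression.

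Metallothioneins, the small cysteine-rich proteins that buffer zinc and copper, were abundant in both lines and were not called. Mt1 (chromosome 8, 96702989 to 96704227) was listed at 1521 FPKM in STHdhQ111 and 1014 FPKM in STHdhQ7. This was a log2 fold change of 0.58 (implied SE 0.47; q = 0.617) in the authors' deposited table. Mt2 (chromosome 8, 96696518 to 96697467) was listed at 318.8 FPKM in STHdhQ111 and 203.2 FPKM in STHdhQ7. For Mt2 the same quantity from the authors' deposited table was 0.65 (implied SE 0.38, 95% interval -0.09 to 1.39; q = 0.346). The ratio of Mt1 to Mt2 was 4.77 in STHdhQ111 and 4.99 in STHdhQ7. The 4 metallothionein genes follow each other on chromosome 8 with no other locus of the table between them. Mt3, the brain form, and Mt4, known from stratified epithelium, had no test, with 0.0750 and 0.0576 FPKM in STHdhQ111 and 0.314 and 0.0951 FPKM in STHdhQ7. The cluster therefore held a pair of highly expressed genes beside a pair near 0 in both lines.

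Metallothionein genes are known targets of the zinc-sensing factor Mtf1, which binds metal response elements with the core TGCACNC or TGCGCNC. Mtf1 was listed at 3.69 FPKM in STHdhQ111 and 4.53 FPKM in STHdhQ7 and was not called. The 250 bases before the RefSeq start of Mt2 (GRCm38.p6, chr8:94172368-94172617, plus strand) held 3 matches to the core on either strand, which 1.26% of 32851 promoter windows of this length reached. Among the 48 windows of metal handling genes, 4.17% reached 3 matches, and that of Mt1 held 1. The Mt2 window is printed because Mt2 is a well-studied zinc-induced gene, with the matches in capitals. The match nearest the start is on the minus strand. At least 1 match stood in 41.7% of the 48 windows of metal handling genes, beside 21.4% of all windows. Some genes have several windows, base composition was not matched, and the difference was not tested.
Mt2 promoter: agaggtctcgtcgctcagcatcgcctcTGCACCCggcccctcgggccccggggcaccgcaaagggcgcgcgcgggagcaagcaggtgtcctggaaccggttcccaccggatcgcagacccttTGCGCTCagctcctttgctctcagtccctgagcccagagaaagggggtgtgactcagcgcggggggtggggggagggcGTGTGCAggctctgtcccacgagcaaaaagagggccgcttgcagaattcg

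None of the 3 tested copper transport genes was called. Slc31a1 (Ctr1), the main copper importer (chromosome 4, 62021735 to 62052803), was listed at 8.37 FPKM in STHdhQ111 and 16.2 FPKM in STHdhQ7. The authors' deposited table put Slc31a1 at a log2 fold change of -0.95 (implied SE 0.41, 95% interval -1.76 to -0.14), and its q of 0.124 missed the threshold. Slc31a2 (Ctr2), its vesicular relative, lies 62289 bases away on the same chromosome and was listed at 13.8 FPKM in STHdhQ111 and 9.42 FPKM in STHdhQ7 (q = 0.601 in the authors' deposited table). The ratio of Slc31a1 to Slc31a2 was 0.606 in STHdhQ111 and 1.72 in STHdhQ7, and its difference between the lines was not tested. Atp7a, the copper pump of the Golgi, was listed at 4.64 FPKM in STHdhQ111 and 4.16 FPKM in STHdhQ7. Atp7b, its liver relative, had no test, with 0.0421 FPKM in STHdhQ111 and 0.0515 FPKM in STHdhQ7.

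Across all roles, RNA for storage and buffering made up most of the total. The 42 genes summed to 7256 FPKM in STHdhQ111 and 8193 FPKM in STHdhQ7, and Fth1, Ftl1, Mt1 and Mt2 held 91.4% of the sum in STHdhQ111 and 93.7% in STHdhQ7. Storage genes summed to 4792 FPKM in STHdhQ111 and 6460.5 FPKM in STHdhQ7, and metallothioneins to 1840.2 FPKM in STHdhQ111 and 1218 FPKM in STHdhQ7. Iron uptake and reduction genes summed to 136.0 FPKM in STHdhQ111 and 72.3 FPKM in STHdhQ7, with Steap3 accounting for the larger sum in STHdhQ111. No test of the sums was possible with 1 value per line.

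Genes that work alongside these transporters were described from a list of 60, of which 51 had a test. Flvcr1 and Flvcr2, also planned for the list, matched no gene by symbol and are not among the 60. Of the 51, 5 were called (9.8%), 2 higher and 3 lower, beside the 13.5% of all tested genes. Among 13 tested genes of iron uptake, regulation and export, 1 was called (7.69%), ceruloplasmin (Cp). Cp, the copper-containing oxidase that works with ferroportin (chromosome 3, 19857054 to 19935310), fell to 3.01 FPKM in STHdhQ111, against 67.3 FPKM in STHdhQ7, 22.4-fold. The log2 fold change of Cp was -4.48 (implied SE 0.60) at a q of 6.45e-12 in the authors' deposited table. The Cp locus overlaps that of Hps3, which was listed at 3.58 FPKM in STHdhQ111 and 3.87 FPKM in STHdhQ7. The STHdhQ111 level of Cp was close to that of Hps3, and whether exons of these genes overlap was not checked. The iron chaperones Pcbp2 and Pcbp1 and the ferritin autophagy receptor Ncoa4 were not called, at 241.4, 231.7 and 26.9 FPKM in STHdhQ111 and 275.9, 197.2 and 20.01 FPKM in STHdhQ7.

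Of 24 tested haem and iron-sulphur genes, 1 was called (4.17%), beside 13.5% of all tested genes. It was Slc46a1, a folate transporter also described as a haem carrier (chromosome 11, 78279203 to 78285447), which rose to 10.95 FPKM in STHdhQ111, against 4.33 FPKM in STHdhQ7, 2.53-fold (q = 0.0300 in the authors' deposited table). Hmox1, the inducible enzyme that releases iron from haem, was listed at 254.3 FPKM in STHdhQ111 and 207.3 FPKM in STHdhQ7. Glrx5 and Iscu, of iron-sulphur cluster assembly, were listed at 93.7 and 54.8 FPKM in STHdhQ111 and at 72.3 and 81.2 FPKM in STHdhQ7.

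Of 12 tested copper chaperones and copper enzymes, 3 were called (25%), beside 13.5% of all tested genes. This list was chosen with earlier results of these data known, and the difference in share was not tested. Lox, the copper-dependent oxidase that crosslinks collagen, rose to 426.7 FPKM in STHdhQ111, against 44.4 FPKM in STHdhQ7, 9.61-fold (q = 1.42e-12 in the authors' deposited table). It moved in the same direction as the fibroblast markers given above, and their part in it was not tested. Sod3, the extracellular superoxide dismutase, fell to 19.2 FPKM in STHdhQ111, against 129.6 FPKM in STHdhQ7, 6.75-fold (q = 2.42e-10 in the authors' deposited table). Pam, which amidates peptides, fell to 55.3 FPKM in STHdhQ111, against 121.7 FPKM in STHdhQ7, 2.20-fold (q = 0.0280 in the authors' deposited table). The cytosolic dismutase Sod1 and the chaperones Atox1 and Cox17 were not called, at 568.6, 209.8 and 106.7 FPKM in STHdhQ111 and 489.9, 178.7 and 100.6 FPKM in STHdhQ7. Neither Mtf1 nor Mtf2 (3.81 FPKM in STHdhQ111 and 5.18 FPKM in STHdhQ7) was called.

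**Figure D4:**
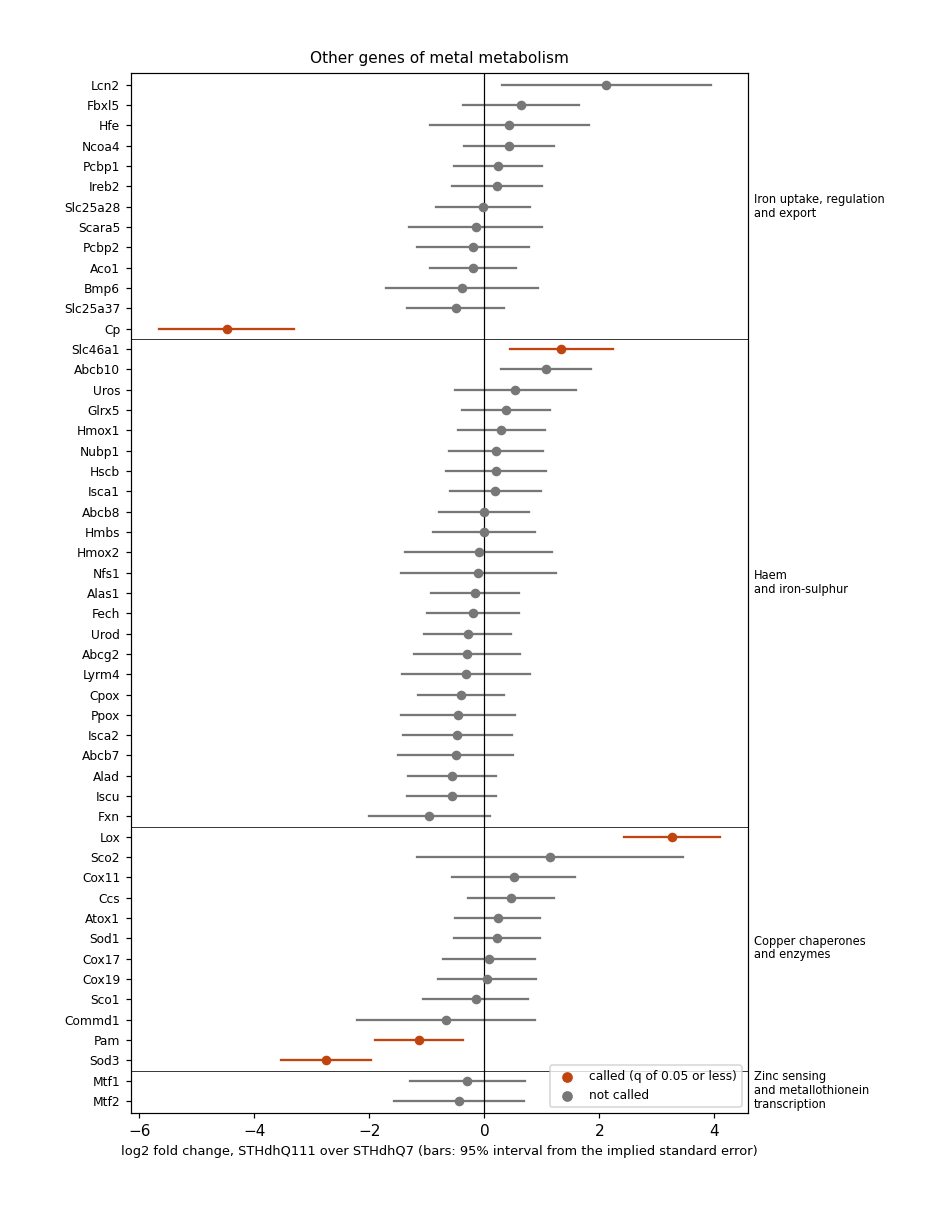
Log2 fold change, STHdhQ111 over STHdhQ7, of the 51 tested genes that work with metal transporters, with 95% intervals from the implied standard errors. Lox and Slc46a1 lie above 0 and Cp, Sod3 and Pam below 0 among the called genes; of the 46 uncalled ones only Lcn2 and Abcb10 have intervals that miss 0.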

How the data were processed

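The submitters' processing notes name Bowtie 0.12.7, TopHat 1.4.0, Cufflinks 2.0.2, Cuffdiff without a version, and mm9. Annotation, options and read length are not given in the labels or headers. The library protocol in the labels does not describe strand marking, so a gene and an antisense partner cannot be told apart. The deposited table holds FPKM, combined by the authors over replicates, with their log2 fold change, p-value and q-value, per the file headers. Genes with status OK (12740) are the tested ones, and 93 of them are listed at 0 in 1 line and have no fold change. For tested genes, the deposited p-value equalled the normal tail of the statistic to within 2.7e-06, so fold change over statistic gives the implied standard error. Nothing in the labels says that replicates were separate cultures, so p-values may measure technical spread only. Locus starts were raised by 1.

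Members and lists were chosen with earlier results of these data known. Called members and uncalled tested members with a mean of 5 FPKM or more were named, the other members being named so that all are accounted for; in the wider list, called genes and up to 3 abundant uncalled ones per group were named. Promoters matched 36 of 42 members by symbol (RefSeq, GRCm38.p6). The code for call counts and recentring was run on simulated data with planted changes larger than those of any called member. That run checked the code only and says nothing about the authors' calls. Python 3.11.15, numpy 2.4.6, pandas 2.3.3, scipy 1.17.1 and matplotlib 3.10.9 were used.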

Additional observations from a re-analysis of the deposited data

How the results depend on the processing

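Counts of called metal handling genes were recomputed at a q of 0.01 and of 0.1, over genes at 1 FPKM or more in at least 1 line, and after subtracting the median log2 fold change (-0.05) of tested genes averaging at least 1 FPKM. Steap3 and Tfrc were called in all 4. Members called higher numbered 1 under the filter at 1 FPKM, which removes Slc30a3, and members called lower numbered 1 at a q of 0.01, where Slc40a1 was not called. Wider-list genes called higher numbered 1 at a q of 0.01 (Lox, without Slc46a1) and 3 at a q of 0.1 and after recentring, with Abcb10 added; those called lower numbered 2 at a q of 0.01, without Pam. The median log2 ratio ranged from -0.10 to -0.03. Of 26 named members, 24 moved by less than their standard error with a pseudocount of 0.5 or 1, and none changed sign; Slc30a3 and Slc40a1 moved by more. Recentring the sums by role, an alternative chosen after seeing the data, turned no direction. No paired analysis was possible because the values are combined over replicates, for which reason leaving out a replicate was not run either.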

Other observations

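Iron-responsive hairpins and called genes were also set side by side over the whole table. Of the 87 tested genes with a hairpin match in a UTR, 5 were called higher and 8 lower (14.9%), close to the 13.5% of all tested genes. Besides Tfrc and Slc40a1, named after their values were seen, these included the chloride channel Ano1 (5.04 FPKM in STHdhQ111 and 0.106 FPKM in STHdhQ7) and the taurine transporter Slc6a6 (15.6 and 57.8 FPKM), both with the match in the 3′ UTR.

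Matches to the metal response core stood in 20 of 48 promoter windows of metal handling genes (41.7%), beside 21.4% of all windows. Members with several windows count more than once, base composition was not matched, and the difference was not tested. Apart from Mt2, the window of Slc30a10, which had no test, also held 3 matches, and that of Mt1 held 1.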
